A study of Drosophila melanogaster with 3 samples.

Results

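The authors' procedure of irreproducible discovery rates (IDR) kept 5164 peaks of a Deadpan ChIP-seq experiment, and below them lay 4836 weaker entries of the pooled peak list, at ranks 5165 to 10000. Of these, 3466 (71.7%) had a summit within 150 bp of a summit in each of the 3 replicate lists, and they are called weak sites here. They made up 11.6% of the 30000 entries of the pooled list. The sites were thus chosen by measured values, the pooled signal and the summit positions in the replicates, and these values are given below as a description without a test. The chromatin came from whole Drosophila melanogaster embryos of mixed sex, collected over 0 to 24 hours from 1 line, dpn-MiMIC-GFP, which carries an eGFP exon in an intron of dpn and so makes a dpn-GFP fusion protein. The description names an antibody against GFP and the antibody field names dpn, a disagreement the sources used here do not settle, and the 3 biological replicates form 1 group. The peak callers' lists had been made against a control alignment, and that control is not analysed here. The other 1370 entries of the same ranks are called unmatched entries, and they, the IDR-thresholded list, the sites' own flanks and all bases of the chromosome arms are what the weak sites were set against.

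Deadpan belongs to the Hes family of bHLH transcription factors, which mostly repress. In the embryo it is known as a marker of neuroblasts, the neural stem cells, and as one of the autosomal factors read against the X chromosomes in sex determination. Hes proteins recruit the corepressor Groucho and are known to bind E-box-like sites (here CACGTG and CACGCG) and N boxes (CACNAG). In a whole-embryo sample of all stages, fewer cells with a bound site and weaker binding in every cell give the same low signal and cannot be told apart.

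Sequences of 6 weak sites are shown because they carry the letters that the results on hexamers turn on. They are those at genes of the Enhancer of split complex, where 1 further site is not shown, and the 4 strongest sites that hold ACAGTG, the hexamer with the smallest p at weak summits, all outside annotated untranslated regions. They run along the plus strand of genome release 6, within 50 bp of the summit, and capitals mark on either strand the 6 Hes forms (CACGTG and CACGCG and the 4 forms of CACNAG) and the 5 hexamers with the smallest p at weak summits (ACAGTG of rank 1, then TATCGA as 2, CAGTGC as 3, ACACTG as 4 and CTGTGC as 5), which may overlap.
E(spl)mdelta-HLH, chr3R:25997331-25997431: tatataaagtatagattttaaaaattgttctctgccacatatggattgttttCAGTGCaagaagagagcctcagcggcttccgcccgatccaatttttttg
E(spl)mgamma-HLH, chr3R:25999043-25999143: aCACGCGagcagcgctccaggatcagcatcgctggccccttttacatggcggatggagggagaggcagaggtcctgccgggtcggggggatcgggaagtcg
tai, chr2L:9176381-9176441: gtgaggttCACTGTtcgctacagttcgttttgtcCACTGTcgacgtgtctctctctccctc
Tlk, chrX:3744432-3744532: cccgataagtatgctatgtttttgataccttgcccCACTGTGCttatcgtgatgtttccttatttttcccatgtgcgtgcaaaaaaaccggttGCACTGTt
Pgant5, chr2L:5092192-5092292: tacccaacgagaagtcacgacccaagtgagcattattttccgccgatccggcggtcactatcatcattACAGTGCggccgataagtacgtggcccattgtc
wdn, chr3R:28811338-28811432: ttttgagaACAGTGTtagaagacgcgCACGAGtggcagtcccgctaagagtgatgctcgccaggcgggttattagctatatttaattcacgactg
The window at E(spl)mdelta-HLH held CAGTGC and none of the 6 Hes forms, and that at E(spl)mgamma-HLH held 1 Hes form. ACAGTG was within 50 bp of the summit in 7.59% of weak sites, against 3.17% with it in windows of the same length 400 bp outward.

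The 3 strongest coding-exon sites that could be shown under the same limits follow, with the same capitals. They were picked by rank and 4 of the sites above for holding ACAGTG, so the marked letters of these sites cannot be compared.
CG43245, chr3L:10772751-10772851: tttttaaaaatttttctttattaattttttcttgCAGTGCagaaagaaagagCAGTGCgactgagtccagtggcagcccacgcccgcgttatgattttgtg
Atat and aay, chr3L:9423799-9423899: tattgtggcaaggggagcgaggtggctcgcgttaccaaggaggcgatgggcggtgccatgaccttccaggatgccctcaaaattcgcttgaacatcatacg
Ctr9, chr3L:1310841-1310941: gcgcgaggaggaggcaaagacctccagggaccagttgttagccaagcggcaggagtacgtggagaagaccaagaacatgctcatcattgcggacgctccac
Of these 3, only the window in CG43245 held a marked hexamer, CAGTGC in 2 places.

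The first question was how the replicates ranked the weak sites. Their signal value in the pooled list, the peak caller's score per region on a scale the sources used here do not state, ran from 127.7 to 76.7 with a median of 98.2, against a median of 86.2 in unmatched entries. The median pooled rank was 7214 for weak sites and 8519 for unmatched entries, so the weak sites lay higher in the band, which bears on every comparison of these sets below. The lowest IDR-thresholded peak, at rank 5164, also had a signal of 127.7, the first unmatched entry, at rank 5174, had 127.6, and the first entry below the band, at rank 10001, had 76.6. The −log10 q-value of the weak sites was 1.16 at the lowest, 2.21 at the median and 4.05 at the highest, where 4.05 is also the highest value among IDR-thresholded peaks. The region was 416 bp long in 3456 of the weak sites.

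The replicates gave the sites as a whole similar median ranks, but single sites often different ones. The median rank of the nearest summit was 8751 in replicate 1, 8774 in replicate 2 and 8363 in replicate 3. Among a replicate's own 5164 strongest entries were 12.4% of the weak sites in replicate 1, 13.7% in replicate 2 and 12.1% in replicate 3. Most sites, 2283 of 3466, were in none of these top sets, 1049 were in 1, 129 in 2 and 5 in all 3. At the other end, 6.78%, 9.72% and 5.94% of the sites were ranked beyond 20000 in replicates 1, 2 and 3.

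**Figure D1:**
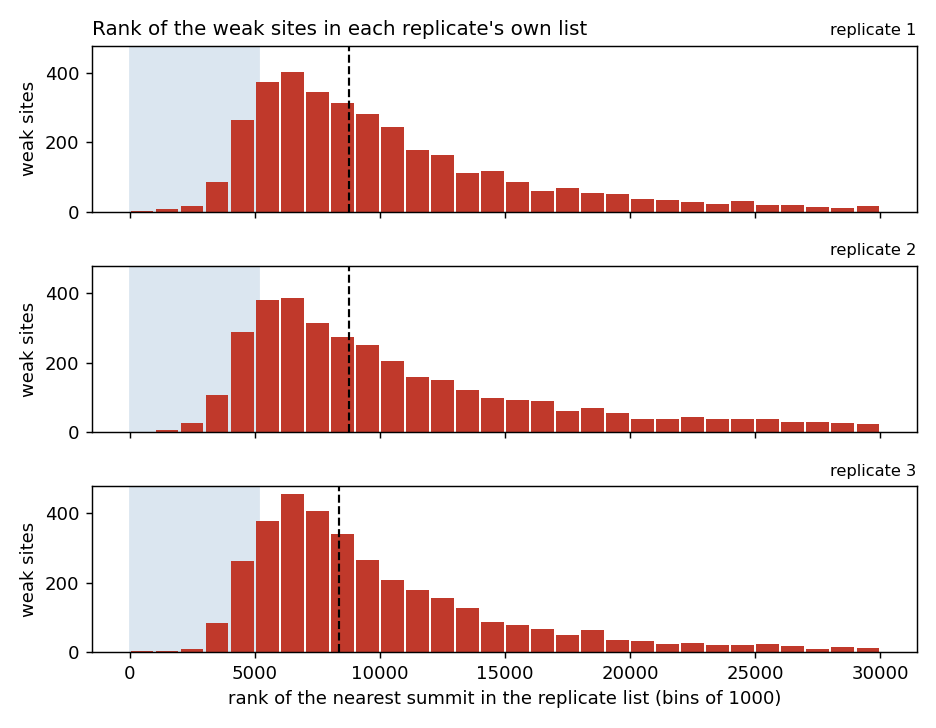
Number of weak sites (y axis) by the rank of the nearest summit in each replicate's own list of 30000 entries (x axis, bins of 1000). The shaded range covers each replicate's 5164 strongest entries, and the dashed line marks the median rank, which lies between 8363 and 8774.

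Summits were close together where they matched. The median distance between the pooled summit and the replicate summit was 15 bp in replicate 1, 17 bp in replicate 2 and 18 bp in replicate 3, and all 3 lay within 50 bp at 1561 sites (45.0%). The limit of 150 bp was less clear cut. It left 80 sites whose farthest replicate summit was within 10 bp of the limit and dropped 87 entries within 10 bp beyond it, the nearest at 151 bp. Replicate 2 was the lacking one most often: 602 entries lacked a match only there, against 345 in replicate 1 and 345 in replicate 3. Across the band, 91.8%, 86.4% and 91.8% of entries had a match in replicates 1, 2 and 3. For scale, 96.9% of IDR-thresholded peaks were matched in all replicates, and 1.98% of the bases of the arms lay within 150 bp of a summit of all 3 replicate lists. The pooled list was made from the alignments of the same 3 replicates, so its summits tend to match theirs by construction. The share of bases is therefore no measure of the matches expected without binding. The share of pooled entries matched in all 3 fell along the list without a step at the IDR threshold, and was 91.9% at ranks 4001 to 5000, 88.7% at 5001 to 6000 and 51.8% at 9001 to 10000.

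**Figure D2:**
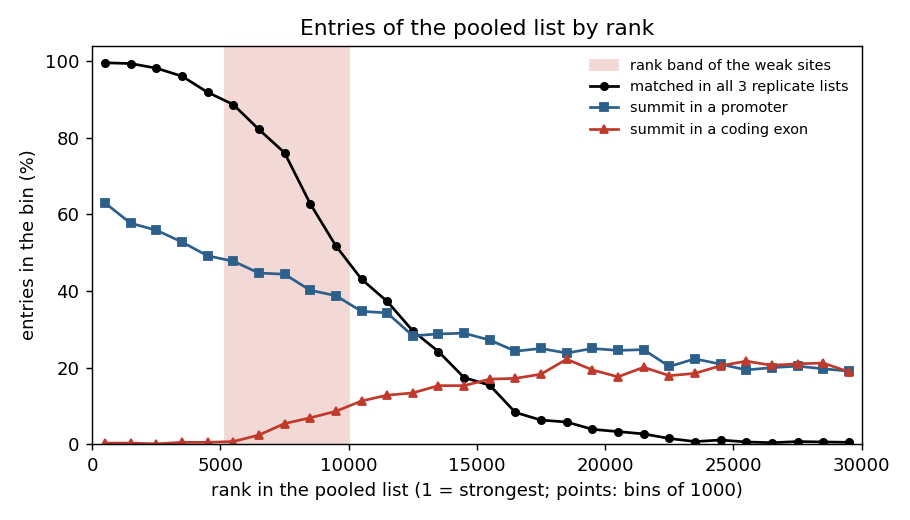
Share of entries (y axis, %) in bins of 1000 ranks of the pooled list (x axis, strongest at the left) that were matched in all 3 replicate lists, had a summit in a promoter or had one in a coding exon. The rank band of the weak sites is shaded; across it matched and promoter shares decline and the coding-exon share climbs from 0.7% at ranks 5001 to 6000 to 8.60% at 9001 to 10000.

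Weak sites were less often at promoters than the peaks above them and more often in introns and coding exons. A promoter here is the stretch within 500 bp of an annotated transcript start. Of weak sites 1427 (41.2%) had a promoter summit, against 2864 (55.5%) of IDR-thresholded peaks and 13.6% of all bases. Introns held 36.6% of weak sites and 30.6% of IDR-thresholded peaks, and intergenic sequence 13.7% and 11.5%. Each of these 3 differences passed Fisher's exact test, two-sided, with Benjamini-Hochberg adjustment over 14 tests (adjusted p = 6.25e-38 for promoters, 4.30e-08 for introns and 0.00499 for intergenic sequence). The regions of the sets are not replicates of a condition, so these p-values speak of these lists only. Both share the pooled list, along which the promoter share declined steadily, from 63.0% in the 1000 strongest entries to 38.8% at ranks 9001 to 10000, so the difference is one of degree.

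The same split was measured in the replicates by their own ranks. In entries of ranks 5165 to 10000 of a replicate's own list that were matched in both other replicates, 42.5% of summits were at promoters in replicate 1, 42.1% in replicate 2 and 43.2% in replicate 3, against 57.2%, 54.3% and 55.0% in the replicates' own 5164 strongest entries. The mean was 42.6% ± 0.563 below and 55.5% ± 1.51 above (SD, n = 3 each), and the ranges did not overlap. Both shares come from the same 3 replicates, and within each the share was lower below than above, by a mean of -12.9 points ± 1.55 (SD, n = 3). An exact permutation test of the signs within replicates, two-sided, gave p = 0.25, the smallest that 3 pairs can give.

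**Figure D3:**
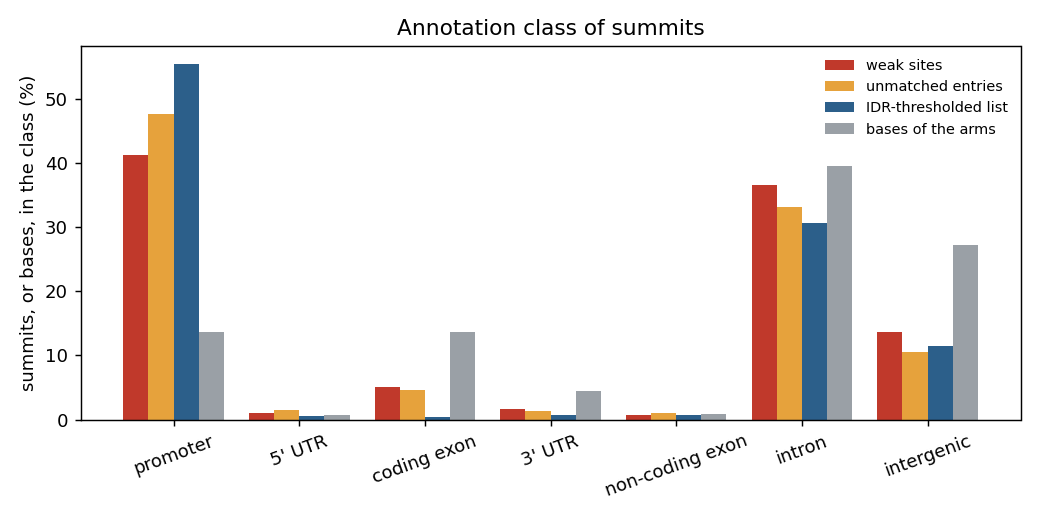
Share (y axis, %) of summits of weak sites, unmatched entries and the IDR-thresholded list, and of all bases of the chromosome arms, in each of 7 annotation classes (x axis). Weak sites have the lowest promoter share of the 3 sets, 41.2%, and coding exons hold 5.05% of them, against 0.349% of IDR-thresholded peaks.

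Against unmatched entries of the same ranks the picture was less firm. The promoter share was 41.2% in weak sites and 47.7% in unmatched entries (adjusted p = 1.29e-04, Fisher's exact test), a difference of -6.57 points. It was -12.9 points among the entries up to rank 7582 and -6.83 points among the weaker ones. The difference ended when the match in replicate 2 was not required (-1.63 points, exact adjusted p = 0.566) and at a matching distance of 50 bp (-2.05 points, adjusted p = 0.283). It turned round at 300 bp (2.57 points) and when the match had to be among a replicate's 10000 strongest entries (1.15 points), neither past the threshold. Intron and intergenic shares were 36.6% and 13.7% in weak sites, against 33.2% and 10.6% in unmatched entries (exact adjusted p = 0.0434 and 0.00712).

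The class with the smallest adjusted p against the peaks above was the coding exon. The summit lay in a coding exon at 175 weak sites (5.05%), against 18 IDR-thresholded peaks (0.349%, exact adjusted p = 6.22e-49) and 64 unmatched entries (4.67%, adjusted p = 0.654). By the same classes, 13.7% of all bases lie in coding exons. The difference from the IDR-thresholded list, 4.70 points, was 1.33 points with matches among the 10000 strongest replicate entries and 2.33 points with a promoter window of 1000 bp, both past the threshold. At the first of these settings weak sites had fewer coding-exon summits than unmatched entries (-3.89 points, exact adjusted p = 2.18e-06). Within the band the coding share among weak sites was 0.814% (6 of 737) at ranks up to 6000 and 10.2% (53 of 518) at ranks 9001 to 10000. Among all pooled entries, matched or not, the coding share went on climbing below the band. It was highest at ranks 18001 to 19000, at 22.2%, and lay between 17.6% and 21.7% in the bins below that. Coding-exon sites had a median pooled rank of 8403, against 7060 for promoter sites.

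Replicate 2 moved with this class. Coding-exon weak sites had a median rank of 11092 in replicate 1, 9096 in replicate 2 and 11011 in replicate 3. Of them 46.9% were ranked highest in replicate 2, against 29.3% of promoter, 35.4% of intronic and 36.8% of intergenic sites. By the replicates' own ranks, the coding share below was 3.40%, 4.73% and 3.03% in replicates 1, 2 and 3, against 0.426%, 1.36% and 0.290% in their strongest entries. That is 3.72% ± 0.894 against 0.691% ± 0.580 (SD, n = 3 each), higher below in all 3 replicates (exact permutation of the signs within replicates, two-sided, p = 0.25) and highest in replicate 2 at both levels. The part of replicate 2 in the coding-exon sites was not tested. Without its match being required, the coding share of weak sites minus that of unmatched entries was -2.48 points (exact adjusted p = 0.00847), while the difference from the IDR-thresholded list was 4.20 points.

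Base composition moved with the class as well. Within 50 bp of the summit the bases were 59.7% G and C in coding-exon weak sites, against 42.8% in their flanks. Over all weak sites the summits had 41.0% and the flanks 42.0%, whereas IDR-thresholded summits had 37.3% and their flanks 43.3%. In intronic weak sites it was 37.5% at summits and 41.6% in flanks. In intronic IDR-thresholded peaks it was 34.4% and 42.0%. These shares are given without a test.

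The strongest coding-exon weak sites lay in genes of varied function. The first, at rank 5274, was in par-1, the gene of a polarity kinase, and was ranked 5860, 4495 and 8458 in replicates 1, 2 and 3. Others were in pyr, which encodes an FGF ligand (rank 5923), in Ctr9, a subunit gene of the Paf1 complex (5737), and in yki, the transcriptional coactivator gene of the Hippo pathway (6224). The site in yki had rank 2885 in replicate 2, within its strongest entries, and 8733 and 9073 in replicates 1 and 3. These sites were picked as the strongest of their class after the class was seen. Coding-exon sites lay a median of 1037 bp from the nearest protein-coding start site, at 501 bp or more, and 14.3% of them were within 1000 bp of an IDR-thresholded summit.

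Sequence was the second measure that the choice of sites had not used. Each of the 2080 hexamers, with both strands merged, was counted as present or absent within 50 bp of a summit and in flank windows of the same length 400 bp outward. A ratio sets the number of sites that had the hexamer at the summit alone over the number with it in the flanks alone, after 0.5 was added to both. At weak sites 70 hexamers (3.37%) were more frequent at summits and 57 (2.74%) less frequent (exact binomial test, two-sided, adjusted p under 0.05). The IDR-thresholded list, with more regions, gave 481 (23.1%) and 756 (36.3%), and the fewer unmatched entries 11 (0.529%) and 3 (0.144%). Of the 70, 64 were also more frequent in the IDR-thresholded list, of the 57, 52 were also less frequent there, and none passed in the opposite direction. Many of the 70 were poor in G and C: 43 had at most 2 of these letters and 8 had at least 4. Of the 57, 6 had at most 2 and 28 at least 4. Each of these classes holds 720 of all 2080 hexamers. Hexamers that overlap by several letters are not independent.

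**Figure D4:**
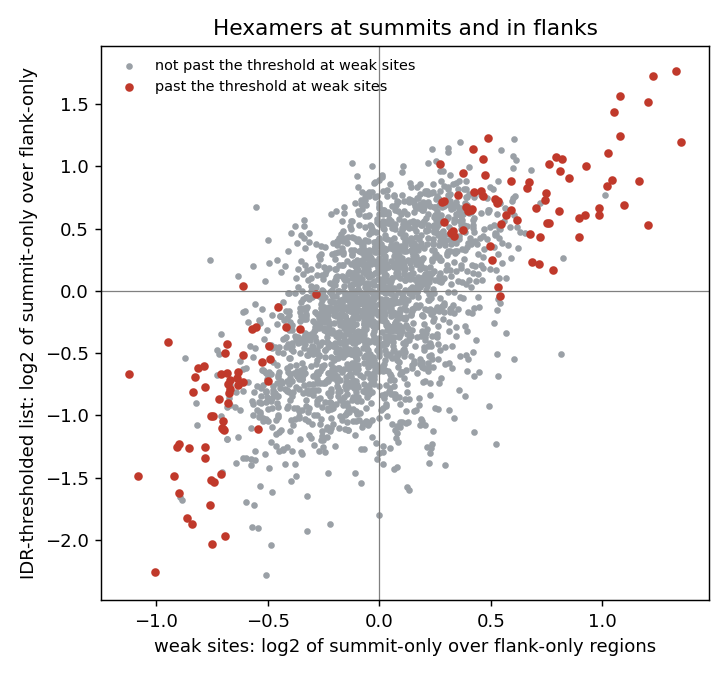
Each point is 1 of 2080 hexamers, with the log2 ratio of summit-only to flank-only regions in weak sites (x axis) and in the IDR-thresholded list (y axis). The 127 hexamers past the threshold at weak sites, in red, lie mainly in the quadrants where both ratios have the same sign.

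Hexamers with CAGTG, read on either strand, were among those with the smallest p at weak sites. ACAGTG was at 263 summits (7.59%) and in 110 flanks (3.17%), a ratio of 2.55 (exact adjusted p = 2.73e-13), and CAGTGC was at 8.57% of summits and in 4.04% of flanks, a ratio of 2.24 (adjusted p = 3.94e-12). ACACTG, which is part of a known core promoter element of flies, Motif 1, had 7.85% and 3.58% (2.30, exact adjusted p = 6.90e-12). TCACAC, another piece of Motif 1, had 5.34% and 5.22% (1.02, exact adjusted p = 0.993). CTGTGC, which does not hold CAGTG, had 6.90% and 3.14% (2.31, exact adjusted p = 2.19e-10). Of the 8 hexamers that hold CAGTG on either strand, 7 were more frequent at weak summits and 6 at IDR-thresholded summits. The replicates' own matched summits gave ratios of 2.39, 2.22 and 2.31 for ACAGTG in replicates 1, 2 and 3, or 2.30 ± 0.0853 (SD, n = 3). They gave 2.04 ± 0.0737 for CAGTGC and 2.19 ± 0.102 for ACACTG, and no replicate was below 1. These summits lie at the same sites, so they are repeats of position and not of sequence.

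The second group were pieces of the DNA replication-related element, the site of the factor DREF at promoters of housekeeping genes. TATCGA was at 8.08% of weak summits and in 3.69% of flanks (2.34, exact adjusted p = 3.56e-12), CGATAG at 5.63% and 2.37% (2.52, adjusted p = 6.45e-10) and ATCGAT at 6.52% and 3.29% (2.11, adjusted p = 6.32e-08). The excess of all 3 lay at promoters: TATCGA was at 14.6% of promoter summits and in 4.13% of their flanks, but at 3.47% of intronic summits and in 3.55% of their flanks. Its ratio was 4.01 at promoter sites and 1.05 at all others, a difference past the threshold (Fisher's exact test on sites with the hexamer at one place only, adjusted p = 6.44e-08 over 7 hexamers). CGATAG had 4.04 and 1.05 (exact adjusted p = 1.07e-05) and ATCGAT 3.42 and 0.845 (adjusted p = 2.69e-07).

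For the 3 named hexamers with CAGTG and for CTGTGC, the difference between promoter sites and the others did not pass the threshold. ACAGTG had a ratio of 2.08 at promoter sites and 2.96 elsewhere (exact adjusted p = 0.206), CAGTGC 2.08 and 2.36 (adjusted p = 0.588), ACACTG 2.66 and 2.04 (adjusted p = 0.303) and CTGTGC 1.73 and 2.67 (adjusted p = 0.168). ACAGTG was at 10.1% of intergenic weak summits and in 2.74% of their flanks. At the 175 coding-exon sites CTGTGC was at 9.14% of summits and in 2.86% of flanks, and CAGTGC at 7.43% and 5.14%. ACAGTG was at 3.43% of these summits and in 4.0% of flanks, ACACTG at 3.43% and 2.29%, and TATCGA at 0 summits and in 3.43% of flanks. These shares by class are given without a test.

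The forms bound by Hes proteins did not pass the threshold at weak sites. CACTAG came nearest, at 2.51% of summits and in 1.73% of flanks (ratio 1.46, exact adjusted p = 0.190), with 1.27, 1.37 and 1.59 at the matched summits of replicates 1, 2 and 3. In the IDR-thresholded list it was at 3.23% of summits and in 1.49% of flanks (2.19, exact adjusted p = 5.50e-08), and the 2 sets of summits did not differ past the threshold (-0.724 points, adjusted p = 0.146). Of the other forms, CACGCG (0.661, exact adjusted p = 0.00511), CACGAG (0.718, adjusted p = 0.0317) and CACCAG (0.627, adjusted p = 1.64e-04) were less frequent at IDR-thresholded summits than in their flanks. So were 36.3% of all hexamers in that list, whose summits had 37.3% G and C and whose flanks had 43.3%. The part of base composition in the ratios of the Hes forms was not tested. At weak sites CACGTG had a ratio of 0.906 at the pooled summits (exact adjusted p = 0.938) but 1.39, 1.05 and 1.09 at the replicates' summits, so its direction was not settled. The other ratios were 1.14 for CACGCG, 1.15 for CACGAG, 0.946 for CACAAG and 0.784 for CACCAG, with adjusted p between 0.309 and 0.931. Any of the 6 forms was within 50 bp of 13.8% of weak summits (479 sites) and in 13.7% of their flanks, against 13% of IDR-thresholded summits.

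Letters of other embryonic factors gave small ratios. CAGGTA, the core of the Zelda site, had 0.818 at pooled summits but 1.01, 1.08 and 1.05 at the replicates' summits. GAGAGA, bound by GAGA factor, had 1.16 (exact adjusted p = 0.517), and TATAAA, the TATA box, 1.09. Of the E boxes, CAGCTG had 1.13, CATATG 1.18, CAGGTG 0.930 and CACATG 1.10. For none of these 7 was the adjusted p under 0.05, and the smallest of the 4 E boxes' was 0.602. With windows of 100 bp GAGAGA (exact adjusted p = 0.0411) and TATAAA (adjusted p = 0.0247) were more frequent at summits. Among hexamers less frequent at weak summits, the 5 with the smallest p were ACACAC (0.628), CACACA (0.656), CCAGGA (0.498), AGATCC (0.460) and ACACAT (0.654), with adjusted p from 1.23e-05 to 7.61e-04. With flanks 800 bp away the log2 ratio of ACACAC was -0.124 instead of -0.670, that of CACACA -0.160 instead of -0.609 and that of ACACAT -0.101 instead of -0.613, none of them past the threshold. The ratio of ACACAC was 0.715 ± 0.0265 (SD, n = 3) over the replicates' summits.

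Set against the peaks above, the weak summits held more hexamers rich in G and C. Of all hexamers 280 (13.5%) were more frequent at weak than at IDR-thresholded summits and 166 (7.98%) less frequent (Fisher's exact test, adjusted p under 0.05). Of the 280, 248 had at least 4 G or C, as do 720 of all 2080 hexamers. Of the 166, 153 had at most 2, as do 720 of all 2080. The leading one in the first direction was GCCGCC, at 5.31% of weak and 2.58% of IDR-thresholded summits (exact adjusted p = 8.98e-08). CGCCGC followed at 5.28% and 2.61%, GGAGCC at 2.31% and 0.794%, AGCAGC at 7.93% and 4.92% and AGGAGC at 3.43% and 1.55%. At least 1 of these 5 was within 50 bp of 18% of weak and 10.7% of IDR-thresholded summits, and of 59.4% of coding-exon weak summits. With coding exons left out of both sets, 131 hexamers were more and 72 less frequent at weak summits. With matches among the 10000 strongest replicate entries, which left 775 sites, 0 hexamers passed in either direction by Fisher's exact test. The differences of these 5 were then 0.257 to 1.51 points, against 1.51 to 3.02 points over all weak sites. GCCGCC had 0.779 points against 2.73. The 5 leading hexamers of the other direction, named next, then differed by -4.59 to -3.91 points, against -6.88 to -4.50 over all weak sites. Their largest change was from -6.88 to -4.44 points and their smallest from -4.58 to -4.59. The count of 0 thus does not show that the differences in that direction ended.

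In the other direction TTAAAA led, at 18.7% of weak and 25.6% of IDR-thresholded summits (exact adjusted p = 1.18e-10), followed by TTTAAA at 11.5% and 16.2%, AATTAT at 11.1% and 15.7%, AAATTA at 14.7% and 19.5% and AAATGT at 12.8% and 17.3%. Pieces of the DNA replication-related element were also less frequent at weak summits, TATCGA with -2.11 points (exact adjusted p = 0.00954) and CGATAG with -2.26 points (adjusted p = 0.00106). Within promoters, TATCGA was at 14.6% of weak and 15.7% of IDR-thresholded summits.

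Between weak sites and unmatched entries no hexamer passed the threshold (0%), with 130 of 2080 (6.25%) at an unadjusted p under 0.05 and a smallest adjusted p of 0.291. That value belonged to CCGAGA, at 1.64% of weak summits with a difference of -1.79 points from unmatched entries, and to CGTTCC, at 2.19% with -1.97 points. The next in that direction were ACCCAA with -2.14 points, ACGGCA with -1.81 and GGGAAC with -1.54. The 5 with the smallest p among those more frequent at weak summits were ACTACA with 2.08 points, CAGAAA with 2.36, AGCCGA with 1.59, ATACGA with 1.45 and CCTTAG with 1.10, the smallest adjusted p of these being 0.317.

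Weak sites were mostly apart from the peaks above. The nearest IDR-thresholded summit was at a median of 4543 bp from weak sites and 3537 bp from unmatched entries. It lay within 1000 bp of 555 weak sites (16.0%) and of 281 unmatched entries (20.5%), and within 300 bp of 5.89% and 11.1%. Summit positions are what the matching used, so these shares are a description without a test, and their order hung on the matching distance. The difference within 1000 bp, -4.50 points, was 5.50 points with matching at 300 bp, 0.203 points at 50 bp and -1.23 points with matches among the 10000 strongest replicate entries. From the nearest protein-coding start site, the median distance was 946 bp for weak sites, 705 bp for unmatched entries and 390 bp for IDR-thresholded peaks, and 762 weak sites (22.0%) were over 5000 bp away.

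Some genes held many weak sites along their length. Of 13945 protein-coding genes, 1685 had a weak site between their ends and 41 had 5 or more. The following were singled out for their counts after these were seen. kirre, which encodes a cell adhesion molecule of myoblast fusion and spans 394 kb, held 14 weak sites and 14 IDR-thresholded summits, or 3.55 weak sites per 100 kb, close to the 2.59 per 100 kb of the arms as a whole. tara held 12 weak sites, 11 of them intronic, and 3 IDR-thresholded summits within 34.7 kb, which is 34.6 weak sites per 100 kb. SNF4Agamma, the gene of an AMP-activated kinase subunit, held 11 within 73.5 kb (15.0 per 100 kb) and hth, a homeobox gene, 10 within 132 kb (7.58 per 100 kb).

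The X chromosome carried 19.2% of weak sites, 14.7% of unmatched entries and 18.5% of IDR-thresholded peaks, against 17.6% of the bases. In the replicates' own ranks 5165 to 10000 the share on X was 19.2%, 17.8% and 20.6%. Chromosome 4 carried 0.750% of weak sites and 1.17% of unmatched entries.

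At genes, the weak sites reached 2135 of 13945 protein-coding genes (15.3%) within 1000 bp of a start site, and 1445 (10.4%) of the genes had no IDR-thresholded summit there. The IDR-thresholded list reached 3891 (27.9%). Below, 25 gene lists are read against these shares, without a test, because the lists were chosen with results of these data known. Some genes stand in several lists, and 1 site can serve neighbouring genes.

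**Figure D5:**
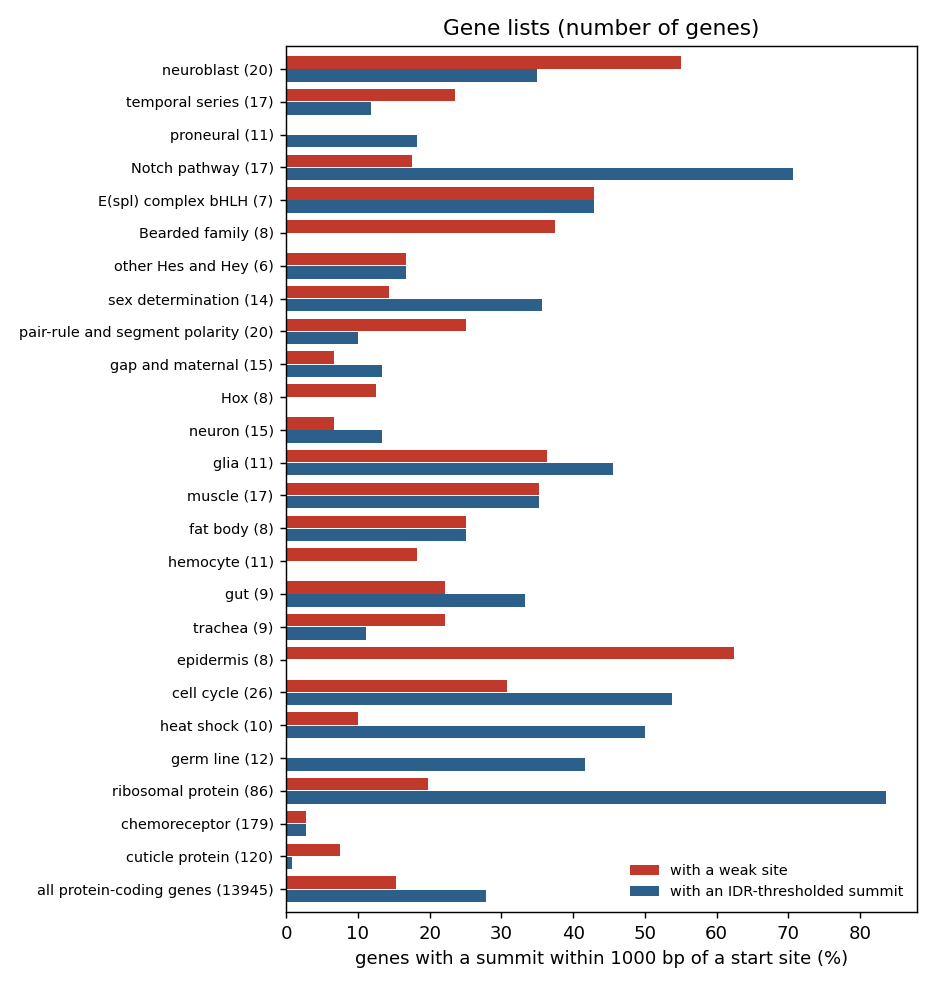
Share of genes (x axis, %) with a weak site (upper bar) or an IDR-thresholded summit (lower bar) within 1000 bp of a start site, in 25 gene lists and in all protein-coding genes (y axis, number of genes in brackets). Epidermis (62.5%) and neuroblast genes (55.0%) have the highest shares with a weak site, against 15.3% of all genes.

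Of 20 neuroblast genes 11 (55.0%) had a weak site, 7 of them without an IDR-thresholded summit, and 7 had an IDR-thresholded summit. The strongest of the 7 was at grh, the gene of the transcription factor Grainyhead, at pooled rank 5182 and 67 bp from a start site, ranked 6219, 11352 and 5118 in replicates 1, 2 and 3. The site of baz, which encodes the Par-3 polarity scaffold, followed at rank 5537 (4579, 4142 and 15350), and that of scrt, a Snail-family zinc finger gene, at 5719 (4403, 15320 and 5718). Each was among 1 or 2 replicates' own 5164 strongest entries, and each had 1 replicate that ranked it below 10000. Of 17 genes of the neuroblast temporal series 4 (23.5%) had a weak site and none of those an IDR-thresholded summit, among them grh again, Imp, an RNA-binding protein gene (rank 6398), and chinmo, a BTB zinc finger gene (6599). None of 11 proneural genes had a weak site, and 2 had an IDR-thresholded summit.

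Of the 7 bHLH genes of the Enhancer of split complex, Hes family genes that answer to Notch, 3 had a weak site, 3 an IDR-thresholded summit and 1 neither. The weak site at -240 bp from the start of E(spl)mdelta-HLH had pooled rank 5798 and ranks 3874, 5585 and 8929 in replicates 1, 2 and 3. That of E(spl)m8-HLH, at 51 bp, had rank 7239 (6183, 8610 and 16758), and that of E(spl)mgamma-HLH, at -758 bp, rank 9949 (12907, 11463 and 13317), near the lower end of the band. Some replicate lists had a stronger entry at these genes than the matched one. It had rank 1640 in replicate 3 at E(spl)mdelta-HLH, and ranks 10822 and 7045 in replicates 1 and 2 at E(spl)mgamma-HLH. The other members were E(spl)m3-HLH, E(spl)m7-HLH and E(spl)mbeta-HLH, with IDR-thresholded summits at ranks 661, 2074 and 4638, and E(spl)m5-HLH, whose best entry had rank 12115. A second entry upstream of E(spl)mdelta-HLH, at rank 8788, was unmatched. The replicate 2 summit nearest to it had rank 1969, but it was taken at any distance and need not lie within 150 bp. That summit was not among the replicate 2 entries counted at this gene, the best of which had rank 5585. The complex thus ran from the strongest 1000 entries to below the band.

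The Bearded family, small proteins that inhibit the ligase Neuralized in Notch signalling, had weak sites at 3 of 8 genes and IDR-thresholded summits at none. They were Tom (rank 6328), Brd (6372) and E(spl)malpha-BFM (8702). The Brd site had ranks 14815, 22003 and 4547 in replicates 1, 2 and 3, a spread in which 1 replicate stood far above the others. Of 17 Notch pathway genes 12 (70.6%) had an IDR-thresholded summit and 3 (17.6%) a weak site, 2 without an IDR-thresholded summit. These were mib1, a ubiquitin ligase gene of Notch ligands (rank 6157), and H, which encodes the corepressor adaptor Hairless (7087). Of 6 other Hes and Hey genes only cwo, a repressor gene of the circadian clock, had a weak site (8817).

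Epidermis genes had a weak site at 5 of 8 and an IDR-thresholded summit at none. The strongest were grh, sr, a tendon cell transcription factor gene, at rank 5624 (5608, 5712 and 7141 in replicates 1, 2 and 3), and Ddc, the gene of dopa decarboxylase, at 5890 (5194, 6000 and 7136). The sites of sr and Ddc were below the top 5164 in every replicate, close to that limit. Cuticle protein genes had a weak site at 9 of 120 (7.50%) and an IDR-thresholded summit at 1 (0.833%). Among those without an IDR-thresholded summit, the strongest weak site was that of Cpr65Ay (6032).

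Cell cycle genes had a weak site at 8 of 26 (30.8%) and an IDR-thresholded summit at 14 (53.8%). At genes without an IDR-thresholded summit, the strongest weak sites were those of E2f1 (rank 5468), CycE (5981) and CycA (6355). E2f1 encodes a transcription factor of S phase entry, and CycE and CycA encode cyclins E and A. The CycE site had ranks 5331, 21926 and 4925 in replicates 1, 2 and 3. Ribosomal protein genes had an IDR-thresholded summit at 72 of 86 (83.7%) and a weak site at 17 (19.8%), 6 of them without an IDR-thresholded summit, the strongest at RpL38 (5415). Of 10 heat shock genes only Hsp22 had a weak site (8491), which replicate 2 ranked at 29657.

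Patterning genes were counted in 3 lists. Of 20 pair-rule and segment polarity genes 5 (25%) had a weak site and 2 an IDR-thresholded summit. The strongest weak sites were those of odd, a zinc finger gene (rank 6240, with 9351, 5558 and 27885 in replicates 1, 2 and 3), pan, the gene of the Wingless pathway factor TCF (6543), and ci, the factor gene of Hedgehog signalling (6904). Of 15 gap and maternal genes only ems had a weak site (6626), and of 8 Hox genes only Dfd (5285, with 5459, 8279 and 5602). Of 14 sex determination genes 2 had a weak site, and tra2, a splicing regulator gene, was the 1 without an IDR-thresholded summit (5221).

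Genes of other tissues had weak sites too. Muscle genes had one at 6 of 17 (35.3%), with sns, a myoblast fusion receptor gene (5398), how (6487) and the myosin gene Mhc (8599) the strongest without an IDR-thresholded summit. Glia genes had one at 4 of 11 (36.4%), and loco (8402) was the 1 of these without an IDR-thresholded summit. The 9 trachea genes had 2, bnl, an FGF ligand gene (5864), and verm, a chitin deacetylase gene (6223). Hemocyte genes had 2 of 11, Hml (5219) and srp, a GATA factor gene (8690), which is also counted among the 8 fat body genes (2 with a weak site) and the 9 gut genes (2). Of 15 neuron genes only Syt1, the synaptotagmin gene, had one (7384). The 12 germ line genes had none, and 5 of 179 chemoreceptor genes (2.79%) had one, Or10a the strongest (5690), with as many having an IDR-thresholded summit.

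The 10 strongest weak sites, at ranks 5165 to 5175, had no common gene class. They lay nearest to TP53INP, Gr93a, a gustatory receptor gene, Prp38, a splicing factor gene, ras, the gene of IMP dehydrogenase, CG12910, snky, CG34429, fab1, a phosphoinositide kinase gene, Reg-2 and CG6282. Only those of Prp38, fab1 and CG6282 were at promoters, and those of ras and Reg-2 were at -26435 and -17220 bp from the start site. Ranks differed between replicates even here: the site near Reg-2 had 3312, 22779 and 6361 in replicates 1, 2 and 3, and that near TP53INP 2783, 9162 and 6839. The site of CG6282 was the most even, with 5957, 4286 and 6081.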

How the data were processed

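Chromatin sheared by sonication to 200 to 800 bp, per the labels, was precipitated from 3 biological replicates of 1 group. The deposited lists, in the dm6 and dm3 builds and with no header, hold 30000 entries per replicate and for the pooled replicates, plus the IDR-thresholded peaks. Neither aligner nor peak caller is named, so these are not given in the sources used here. Of the columns the authors deposited, column 7 is a signal value per region, which served only for ranks inside a list, column 9 is the −log10 of a q-value, and column 10 is the summit's distance in bp from the region's start. The deposited lists hold no read counts, so the depth is unknown and no counting error can be given.

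The dm6 lists were read against genome release 6 with annotation from Ensembl (release 115) and sequence from NCBI, and positions count from 1. A summit within 500 bp of a transcript start was a promoter summit. The others went to the first class that held them, with 5' UTR ahead of coding exon, then 3' UTR, then other exons, then introns, and intergenic sequence last. Annotated transposable elements were left out of the annotation after class shares with them had been seen. Hexamers that span the summit base were not counted. Sets of regions were compared by Fisher's exact test, and summits with flanks by an exact binomial test, both two-sided, with Benjamini-Hochberg adjustment within a family (14 class tests, 2080 hexamers) at 0.05, in Python 3.11.15 with scipy 1.17.1. The hexamer tests were tested on simulated data, where most planted hexamers were recovered. Nearly all other calls were shifted copies of planted ones, so a count of called hexamers is no count of separate motifs. A first version with more planted hexamers recovered a smaller share and called many others. The simulated summits and flanks were drawn with the same base composition, unlike those of the data. The simulation therefore cannot show whether a difference in composition alone gives calls. Regions are not replicates of a condition. Only the replicates' own shares, n = 3, measure spread between samples, by an exact permutation test within replicates. Nearness to IDR-thresholded summits, planned with a test, is given without one, because the matching used summit positions.

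The sites and the 25 gene lists were chosen with earlier results of these data known, and so were the rules below. Of 286 symbols entered, 276 matched the annotation, 6 matched as synonyms and 4 matched none; ribosomal protein, chemoreceptor and cuticle protein genes were found by symbol patterns. Named genes are those nearest to the 10 strongest weak sites, all bHLH genes of the Enhancer of split complex and, per list, up to 3 with a weak site and no IDR-thresholded summit, by pooled rank (1 for the pattern lists). Named hexamers are 18 known forms and the 5 with the smallest p per test and direction. The split by class of the leading hexamers, the coding-exon sites shown and the genes with many sites were added after values were seen. Alternatives changed the matching distance, the replicates and entries searched, the promoter window, the start sites, the gene window, the sequence windows, the site class and the build.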

Additional observations from a re-analysis of the deposited data

How the results depend on the processing

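The deposited lists carry no counts, so depth limits every call to an unknown extent, and the weak sites are defined by the matching itself. The replicate numbers pair no groups, as the series holds 1. The shares below and above the IDR threshold in the replicates' own lists were compared within replicates, chosen after seeing the data. Taken as unpaired, they gave p = 0.10 by an exact permutation test for promoters and for coding exons. Leaving out the match in each replicate in turn gave 3811 to 4068 sites, promoter shares of 41.4% to 42.8%, 2315 to 2499 genes, 58 to 97 hexamers more and 53 to 103 less frequent at summits, promoter differences of -7.54 to -1.63 points and coding-exon differences of -2.48 to 2.19 points from unmatched entries, and -6.54 to -2.70 points for nearness to IDR-thresholded summits. The changed values lay at the setting without replicate 2; the coding-exon difference was also past the threshold, at 2.19 points, without replicate 3.

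A matching distance of 50 bp kept 1561 sites and 1035 genes, called 18 hexamers more and 7 less frequent at summits and 174 more frequent than in the IDR-thresholded list, and gave a promoter difference from unmatched entries of -2.05 points and a nearness difference of 0.203 points. At 300 bp the promoter share was 43.4%, and the promoter, coding-exon and nearness differences were 2.57, -1.25 and 5.50 points. Matches among the 10000 strongest replicate entries kept 775 sites with a promoter share of 44.0% and 535 genes, 11 and 1 hexamers at summits and 0 in either direction against the IDR-thresholded list, with differences of 1.15 points for promoters, -3.89 for coding exons and -1.23 for nearness. The settings of 50 bp and of the 10000 strongest entries keep fewer sites by construction, and that of 300 bp kept more, 4189.

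The promoter share was 39.7% away from IDR-thresholded summits, 32.7% and 54.2% with windows of 250 and 1000 bp, 38.7% with protein-coding start sites, 42.5%, 42.1% and 43.2% by the own lists of replicates 1, 2 and 3, and 42.1% with transposable elements counted. The coding-exon difference from unmatched entries turned to -0.173 points away from IDR-thresholded summits and to -0.597 with a window of 250 bp, and passed the threshold among entries weaker than rank 7582, at 2.65 points. Hexamer windows of 100 bp called 150 more and 177 less frequent at summits, promoter sites alone 30 and 21, and all others 39 and 19. Without coding exons 97 were more and 103 less frequent. Against the IDR-thresholded list, promoter sites gave 87 higher and 70 lower, other sites 109 lower, and sites outside coding exons 131 and 72. The causes were not tested.

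Of 244 alternatives for the 22 named hexamers past the threshold, 212 kept the call, 31 lost it and 1 turned round, ATCGAT away from promoters, with a log2 ratio of -0.244. ACACTG and ACAGTG and CAGTGC kept it in all 12 each. Of 238 for the 24 others, 2 gained a call (GAGAGA and TATAAA with 100 bp windows) and 20 changed sign, none of those past the threshold. On the log2 scale these were CACGTG (0.351 at 50 bp, 0.138 with 100 bp windows), CACAAG (0.212 at 50 bp, 0.0193 at 300 bp, 0.0124 outside coding exons), CAGGTG (0.165 at 50 bp, 0.0974 with flanks 800 bp away, 0.0393 away from promoters) and CACATG (-0.319 at 50 bp, -0.232 with 100 bp windows). The rest were CACGCG (-0.206 with the 10000 strongest entries, -0.213 away from promoters), TCACAC (-0.195 with the 10000 strongest, -0.0208 away from IDR-thresholded summits, -0.378 away from promoters), GAGAGA (-0.150 with the 10000 strongest), CAGCTG (-0.0187 with flanks 800 bp away) and TATAAA (-0.0421 with flanks 800 bp away, -0.175 at promoters). CAGAAA differed from unmatched entries by -0.494 points with the 10000 strongest.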
